A study of Mus musculus with 6 samples.

Results

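Chemokines are small secreted or membrane-anchored proteins that guide leukocytes, and their transcripts were followed here in Hepa1-6, a cultured mouse hepatoma line. The 10 genes Cxcl1, Cxcl2, Cxcl5, Cxcl10, Cxcl16, Cx3cl1, Ccl2, Ccl5, Ccl7 and Ccl20 were found by gene name, 1 row each, among the 55573 rows of the deposited table. The 6 libraries are 3 of Matr3 knockout (KO) cells, made with CRISPR/Cas9, and 3 of wild-type (WT) cells. Matr3 encodes matrin 3, a nuclear matrix protein that binds RNA and DNA. Both groups were grown in the same serum-containing medium, and no cytokine or other stimulus is named in the labels. Whether replicates were separate cultures, and whether the KO cells were 1 clone or several, is not said in the labels. The p-values therefore rest on a spread between libraries that may be technical.

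Chemokines are grouped by the spacing of their first cysteines into CXC, CC and CX3C families, and each binds G protein-coupled receptors on the responding cell. Cxcl1, Cxcl2 and Cxcl5 draw neutrophils through the receptor Cxcr2. Cxcl10 draws activated T cells and natural killer cells through Cxcr3, Ccl2 and Ccl7 draw monocytes through Ccr2, Ccl5 draws T cells and monocytes, and Ccl20 acts through Ccr6. Cx3cl1 and Cxcl16 are made as transmembrane proteins that can be shed. Many chemokine genes are induced by NF-kB, and Cxcl10 also by interferon. In liver tumours, hepatocyte-derived cells are one source of these ligands.

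The KO libraries held 23126778 to 30794032 counts and the WT libraries 20736570 to 27578804. Matr3 mRNA was lower but not lost, at 76.0, 86.1 and 75.3 CPM (counts scaled to library size) in KO libraries and 129, 125 and 134 CPM in WT libraries. KO library 2 and WT library 1 stood apart from the others of their group, with a chi-square per gene of 50.6 and 60.1 from the other KO libraries and of 21.3 and 24.9 from the other WT libraries, against 3.31 and 5.86 within the closest pairs. Across genes, the deviation of a library correlated with GC content at -0.27 in KO library 2 and at 0.26 in the other KO libraries, against -0.03, -0.03 and -0.16 in WT libraries. Defining liver genes were at or near 0: Alb had 1 count in all 6 libraries, Hnf4a 1 and Ttr 0, while Afp was at 2.14 to 3.55 CPM in KO and 4.57 to 5.06 CPM in WT. The epithelial keratin Krt8 was high, at 756 to 763 CPM in KO and 362 to 446 CPM in WT. Summed over 12 liver line markers, the level was 1020 to 1080 CPM in KO and 582 to 685 CPM in WT, most of it Krt8. In this list 3 genes had no count in any library and 4 were tested. By edgeR, Krt8 (log2 fold change 0.88, adjusted p = 0.002) and Krt18 (0.39, 0.0338) rose. The Krt18 call held in 1 of the 6 fits without 1 library. Afp (-0.79, 0.0505) and Apoe (-1.02, 0.171) did not pass, but DESeq2 and limma each called 1 gene lower. Of 12 leukocyte markers 6 had no count in any library, and the pan-leukocyte gene Ptprc had 0 to 2 counts in KO libraries and 0 to 3 in WT libraries. The summed leukocyte list was at 28.6 to 33.4 CPM in KO and 23.4 to 26.1 CPM in WT, nearly all of it from Cd68, Cd14 and Ly6g. Of the 3 tested leukocyte markers, 0 were called by edgeR, DESeq2 or limma. At an unadjusted edgeR p under 0.05, 2 of them were higher and 0 lower, where 2306 and 2301 of all 14842 tested genes were. The summed list of 12 stromal and endothelial markers was at 534 to 645 CPM in KO and 592 to 694 CPM in WT, most of it Col3a1. Of its 8 tested genes 1, Col1a1, was higher (log2 fold change 0.81, a call kept in 1 of the 6 fits without 1 library). In the other direction 2, Cdh5 (-2.27) and Pdgfrb (-1.39, kept in 2 of the 6), were lower. Over all tested genes 7.69% were called higher and 7.48% lower. The part of these markers and of the GC trend in the chemokine values was not tested.

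All 10 chemokines were detected in every library and passed the filter on low counts. Of these, 2 rose in KO, Cxcl2 and Cxcl10, and 0 fell, by the edgeR quasi-likelihood test at an adjusted p (Benjamini-Hochberg, over 14842 tested genes) under 0.05. At an unadjusted edgeR p under 0.05, 3 were higher and 0 lower, where 2306 and 2301 of all 14842 tested genes were. By DESeq2, limma voom or limma on log2(FPKM + 1), 0 of the 10 were lower. Over all tested genes 15.2% were called, 7.69% higher and 7.48% lower, so 2 of 10 lies close to the background, and the count alone says nothing particular to chemokines. The median log2 fold change of the 10 was 0.23, against -0.02 over all tested genes, with 7 above 0 and 3 below. The 3 KO libraries lay wholly above the WT libraries for Cxcl2, Cxcl10 and Ccl20, and wholly below for 0, where 18.3% of all tested genes lay wholly above and 18.4% wholly below (36.6% in either direction). In bulk RNA, a higher level per cell and more cells expressing the gene cannot be told apart. By the adjusted p of the authors' deposited table, Cxcl2, Cxcl10 and Ccl20 are higher and 0 of the 10 lower, where 9.98% of the genes with a value in it pass, 5.12% higher and 4.86% lower.

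**Figure D1:**
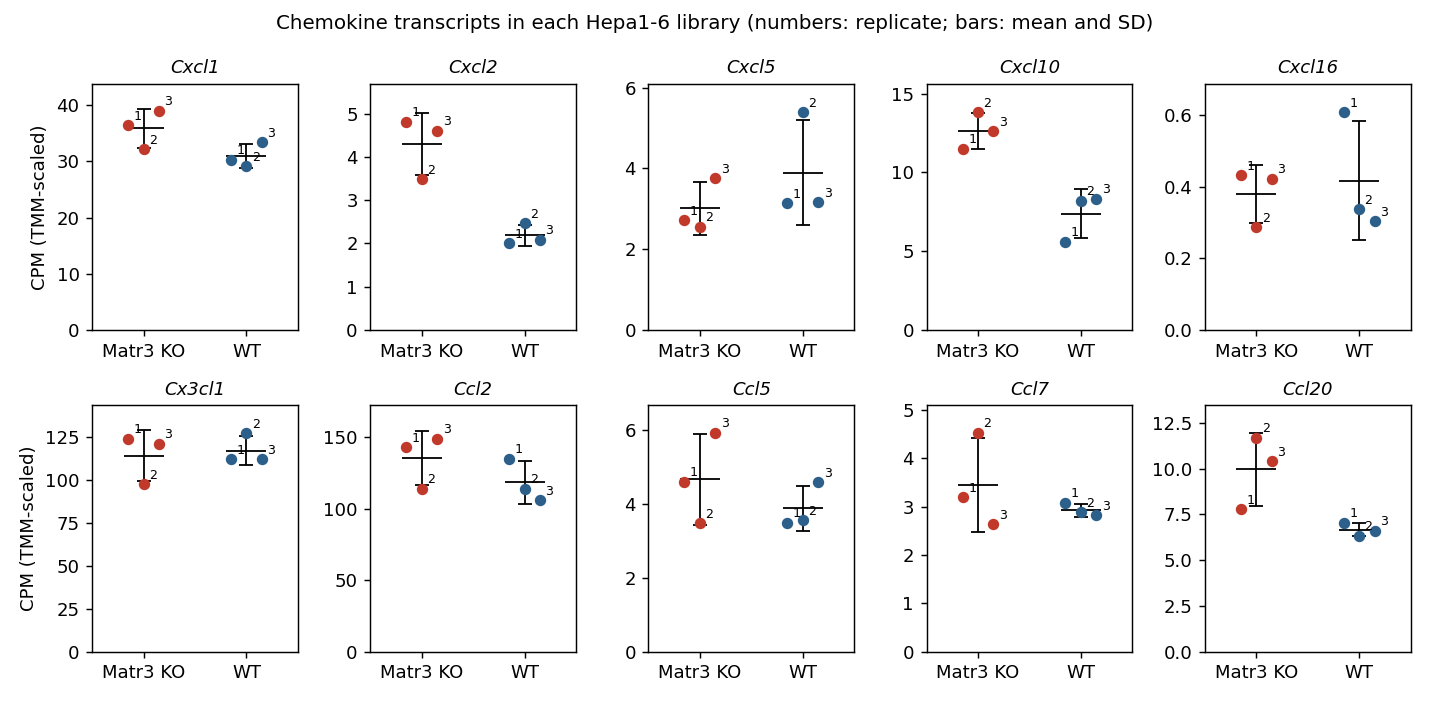
Level of each of the 10 chemokine genes in CPM (vertical axes, starting at 0) in the 3 Matr3 KO (red) and 3 WT (blue) libraries of Hepa1-6 cells; points are libraries, numbered by replicate, and bars give the mean and SD. For Cxcl2, Cxcl10 and Ccl20 all KO points lie above all WT points, and for the other 7 genes the groups overlap.

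The level per transcript length set the 10 genes apart more than the genotype did. On the deposited FPKM scale (counts scaled by gene length and library depth), Ccl2 was at 125, 101 and 131 FPKM in KO libraries, against 116, 100 and 93.2 FPKM in WT libraries, above 96.7% of tested genes in KO and 96.3% in WT. Ccl2 made up 59.3% to 62.8% of the summed FPKM of the 10 genes in KO libraries and 58.6% to 65.5% in WT libraries. Cx3cl1 came next at 29.1 ± 3.59 FPKM in KO and 29.6 ± 2.42 in WT, then Cxcl1 at 19.2 ± 1.77 and 16.4 ± 1.24 FPKM (SD, n = 3 each). These 3 genes kept this order in both groups, with no overlap between neighbours in the order. A middle group of Ccl20, Cxcl10, Ccl5 and Ccl7 ran from 7.03 ± 1.45 to 4.32 ± 1.24 FPKM in KO and from 4.66 ± 0.207 to 3.26 ± 0.711 FPKM in WT, and neighbours within it overlapped in both groups. Cxcl10 stood above Ccl5 and Ccl7 in the mean of KO and below them in the mean of WT. Cxcl2, at 2.08 ± 0.340 FPKM, and Cxcl5, at 1.62 ± 0.352, overlapped in KO, whereas in WT Cxcl5, at 2.08 ± 0.705 FPKM, lay above Cxcl2, at 1.05 ± 0.126, without overlap. Cxcl16 was lowest, at 0.126 ± 0.0261 FPKM in KO and 0.136 ± 0.0527 FPKM in WT. The 10 genes together took 0.0340%, 0.0288% and 0.0349% of all counts in KO libraries and 0.0311%, 0.0290% and 0.0273% in WT libraries, which overlap.

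Among the neutrophil-directed ligands, Cxcl2 rose in KO. Cxcl2 (ENSMUSG00000058427; chromosome 5, 91051730 to 91053797, plus strand, in the deposited coordinates, whose build is unsettled), also known as macrophage inflammatory protein 2, was at 4.82, 3.48 and 4.61 CPM in KO libraries and at 2.01, 2.47 and 2.09 CPM in WT libraries. KO library 2 was the lowest of its group and WT library 2 the highest of its own, and the groups did not overlap. Cxcl2 averaged 4.30 ± 0.722 CPM in KO and 2.19 ± 0.247 CPM in WT (SD, n = 3 each), a 1.96-fold rise and 0.97 on the log2 scale (SE 0.219, edgeR quasi-likelihood adjusted p = 0.0225). These values rest on 352 counts in KO and 164 in WT. The call was lost when KO library 1 (adjusted p = 0.0927) or 3 (0.0918) or WT library 2 (0.0574) or 3 (0.0908) was left out, while the log2 fold change stayed between 0.91 and 1.11 over all 6 such fits. Of the 50-base stretches of annotated Cxcl2 transcripts, 5.84% also occur in its neighbour Cxcl3, so part of the reads could belong to either gene. Cxcl3 itself had 6, 11 and 10 counts in KO libraries and 4, 8 and 1 in WT libraries.

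Cxcl1 (ENSMUSG00000029380; chromosome 5, 91039100 to 91040974, plus strand), which lies 10.8 kb before Cxcl2 and binds the same receptor, was at 36.5, 32.2 and 39.0 CPM in KO libraries and 30.3, 29.2 and 33.4 CPM in WT libraries. Only KO library 2 fell within WT range. The log2 fold change of 0.21 did not pass (95% interval -0.03 to 0.46, edgeR quasi-likelihood adjusted p = 0.219). Without KO library 2 it was 0.29 and passed (adjusted p = 0.0477), the only pass among the 6 fits without 1 library. The number of Cxcl2 counts per 100 Cxcl1 counts, a ratio that no scaling between libraries can move, was 13.2, 10.8 and 11.8 in KO libraries and 6.63, 8.47 and 6.26 in WT libraries. The groups did not overlap in this ratio, and the two-sided exact permutation p of 0.1 is the smallest that 3 against 3 libraries can give. Cxcl5 (ENSMUSG00000029371; chromosome 5, 90907219 to 90909483, plus strand) reached 2.71, 2.55 and 3.76 CPM in KO libraries and 3.13, 5.39 and 3.16 CPM in WT libraries. WT library 2 was well above the other 5 libraries, which overlapped. Its log2 fold change was -0.37 (95% interval -1.02 to 0.28, adjusted p = 0.409), so neither a moderate fall nor a small rise can be told from 0 at this spread.

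The windows of 250 bases before the annotated start of Cxcl2, Cxcl1, Cxcl10 and Ccl20 are shown because 3 of these genes have groups that do not overlap and Cxcl1 is the neighbour that did not pass. They come from RefSeq on GRCm38.p6, whose promoter table matched 5 of the 10 genes, and lie at chr5:90903649-90903898, plus strand, chr5:90890995-90891244, plus strand, chr5:92348890-92349139, minus strand and chr1:83116516-83116765, plus strand. Capitals mark matches, on either strand, to a loose NF-kB consensus (GGG and CC with 5 free bases between them), to the core of the interferon-stimulated response element (GAAA and GAAA with 2 free bases between them), or to TGANTCA, the AP-1 site.
Cxcl2: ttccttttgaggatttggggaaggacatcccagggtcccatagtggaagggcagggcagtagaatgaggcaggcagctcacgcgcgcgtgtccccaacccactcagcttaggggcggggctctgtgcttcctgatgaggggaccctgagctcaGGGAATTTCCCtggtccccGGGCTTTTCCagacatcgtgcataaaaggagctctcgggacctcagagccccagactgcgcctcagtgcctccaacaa
Cxcl1: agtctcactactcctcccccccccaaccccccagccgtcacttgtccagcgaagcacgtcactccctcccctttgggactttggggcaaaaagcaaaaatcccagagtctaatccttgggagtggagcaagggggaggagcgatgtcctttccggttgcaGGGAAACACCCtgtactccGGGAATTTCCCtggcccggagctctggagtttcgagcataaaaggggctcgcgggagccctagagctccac
Cxcl10: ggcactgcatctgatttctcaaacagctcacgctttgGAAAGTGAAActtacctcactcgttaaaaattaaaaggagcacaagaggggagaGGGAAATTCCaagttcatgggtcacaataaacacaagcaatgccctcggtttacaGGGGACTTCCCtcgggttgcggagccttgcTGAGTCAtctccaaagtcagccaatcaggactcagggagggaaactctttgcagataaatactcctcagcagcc
Ccl20: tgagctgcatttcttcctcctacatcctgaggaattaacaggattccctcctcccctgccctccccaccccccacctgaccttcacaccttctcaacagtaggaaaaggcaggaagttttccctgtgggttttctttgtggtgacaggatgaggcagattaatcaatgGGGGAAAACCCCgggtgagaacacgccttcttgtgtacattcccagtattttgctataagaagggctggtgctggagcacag
The narrower NF-kB form (GGGA and TTTCC with 1 free base between them), a subset of the loose one, was matched in Cxcl2 (97 to 88 bases before the start) and in Cxcl1 (71 to 62), and in 0.356% of all 32851 promoter windows. Of the 26 windows of other ligand genes, 1, that of Cxcl3, also held it. Any link between these matches and the levels was not tested. Cxcl10 held the response element core (213 to 204), as did 2.98% of all windows, and the AP-1 letters (74 to 68), as did 6.75%. It also held loose NF-kB matches (159 to 150 and 104 to 95). Of the 26 windows of other ligand genes, 2 held the response element core, those of Ccl19 and Cxcl14, both at 0 counts in every library. The AP-1 letters were in 3, of Ccl9, Ccl27a and Ppbp. The window of Cxcl9 held neither. Any link of these matches to the levels was also not tested. Ccl20 held the loose NF-kB letters (82 to 73). The loose form was present in 45.8% of all windows, so its presence in 4 of the 5 windows found says little. The window of Cx3cl1, the fifth, held none of these letters. A match is a description of the sequence and not of a bound site.

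Cxcl10, the ligand with the clearest link to interferon, also rose. Cxcl10 (ENSMUSG00000034855; chromosome 5, 92494497 to 92496748, minus strand) reached 11.5, 13.8 and 12.6 CPM in KO libraries and 5.60, 8.20 and 8.33 CPM in WT libraries. KO library 2 was the highest of all, WT library 1 the lowest, and the groups did not overlap. Cxcl10 averaged 12.7 ± 1.14 CPM in KO and 7.38 ± 1.54 CPM in WT (SD, n = 3 each), a 1.71-fold rise and 0.78 on the log2 scale (SE 0.176, edgeR quasi-likelihood adjusted p = 0.0231). The call was lost without KO library 1 (adjusted p = 0.0534) or 3 (0.0709) or WT library 2 (0.0580) or 3 (0.0552), with log2 fold changes from 0.63 to 0.87 over the 6 fits that each leave out a library. The gene Art3, which overlaps Cxcl10 on the opposite strand, had 0 counts in KO and 5 in WT.

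Cxcl9 and Cxcl11, the other ligands of Cxcr3, flank Cxcl10 within 44.1 kb and were measured at lower levels. Cxcl9 rose, at 1.89, 2.01 and 2.11 CPM in KO libraries and 0.747, 1.09 and 0.837 CPM in WT libraries, without overlap (log2 fold change 1.16, edgeR quasi-likelihood adjusted p = 0.0284). Its call, like those of Cxcl2 and Cxcl10, was lost without KO library 1 or 3 or WT library 2 or 3, with adjusted p-values of up to 0.117. Cxcl11 had 61 counts in KO and 31 in WT, also without overlap, and did not pass (log2 fold change 0.80, adjusted p = 0.210). All 3 genes of this chromosomal group thus had positive log2 fold changes, 2 of them called, where 7.69% of tested genes were called higher.

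**Figure D2:**
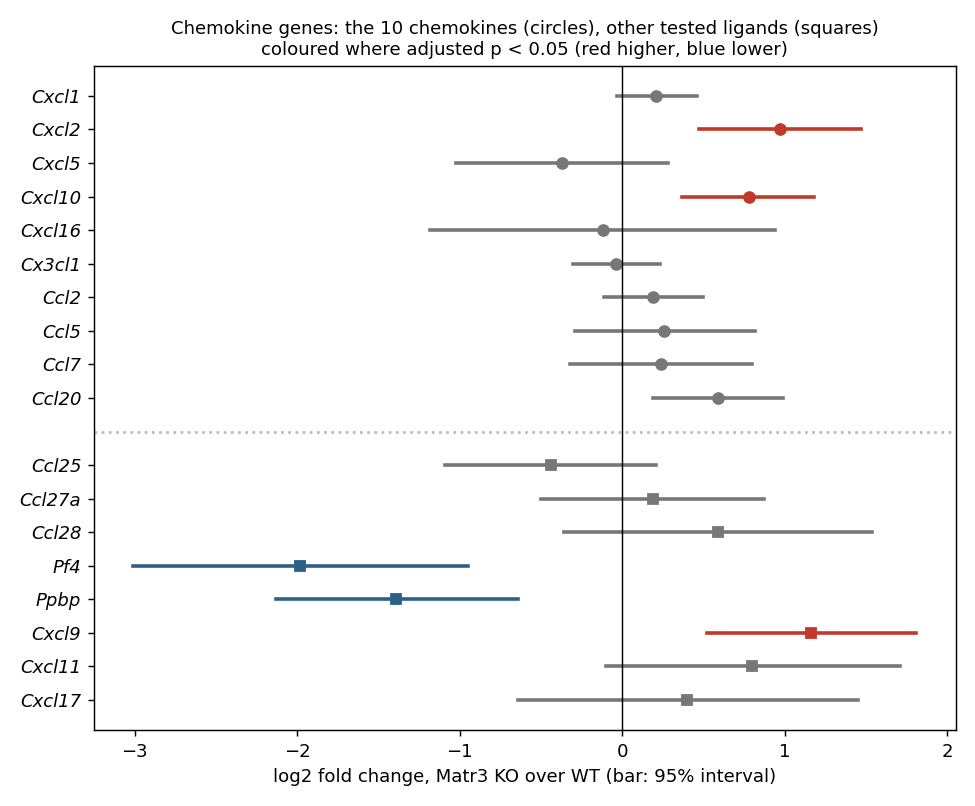
Log2 fold change, Matr3 KO over WT, of the 10 chemokine genes (circles) and of the 8 other tested ligand genes (squares), with 95% intervals from the edgeR quasi-likelihood fit; colour marks adjusted p under 0.05, red higher and blue lower in KO. Cxcl2, Cxcl10 and Cxcl9 are higher, Pf4 and Ppbp lower, and the interval of Ccl20 lies above 0 although its adjusted p was 0.0563.

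The monocyte attractants Ccl2 and Ccl7 did not pass. Ccl2 (ENSMUSG00000035385; chromosome 11, 81926397 to 81928279, plus strand) reached 143, 114 and 149 CPM in KO libraries and 135, 114 and 106 CPM in WT libraries. KO library 2 equalled WT library 2 to 3 digits, and the groups overlapped. The log2 fold change was 0.19 (95% interval -0.11 to 0.50, edgeR quasi-likelihood adjusted p = 0.359). With KO library 2 and WT library 1 both left out it was 0.41 and passed (5.37e-05). In that setting 7556 of 14825 tested genes were called, so a pass there says little. Ccl7 (ENSMUSG00000035373; chromosome 11, 81936538 to 81938351, plus strand), whose gene starts 8.26 kb after the end of Ccl2, was at 3.19, 4.53 and 2.64 CPM in KO libraries and 3.08, 2.88 and 2.82 CPM in WT libraries. KO library 2 alone stood high, with 142 counts (exact 95% Poisson interval 120 to 167, counting error only) against 74 (58.1 to 92.9) and 75 (59.0 to 94.0) in the other KO libraries. The log2 fold change was 0.24 (95% interval -0.32 to 0.80, adjusted p = 0.539). Ccl7 counts per 100 Ccl2 counts were 2.23, 3.98 and 1.77 in KO libraries and 2.29, 2.53 and 2.65 in WT libraries, so the neighbours did not keep a fixed ratio within the KO group.

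Of the 8 chemokines that missed the threshold, Ccl20 came closest to it. Ccl20 (ENSMUSG00000026166; chromosome 1, 83094487 to 83096888, plus strand) reached 7.79, 11.7 and 10.4 CPM in KO libraries and 7.05, 6.33 and 6.62 CPM in WT libraries. KO library 1 lay just above the highest WT library, and the other KO libraries well above it. Ccl20 averaged 9.98 ± 2.01 CPM in KO and 6.66 ± 0.362 CPM in WT (SD, n = 3 each), which is 0.59 on the log2 scale (95% interval 0.19 to 0.99, edgeR quasi-likelihood adjusted p = 0.0563). It passed in 6 of 13 alternatives other than the fits without 1 library, among them DESeq2 (0.0458), with protein-coding genes only (0.0395), with no filter on low counts (0.0139) and after removal of the GC and length trend (0.0135). Among the 6 is also the fit with KO library 2 and WT library 1 both left out, where a pass says little. Ccl20 missed in the other alternatives, such as RLE size factors (0.0576) and limma voom (0.0660), and in 5 of the 6 fits without 1 library (up to 0.159). The authors' deposited table gives it an adjusted p of 0.0429. Ccl5 (ENSMUSG00000035042; chromosome 11, 83416604 to 83421344, minus strand), also known as RANTES, was at 4.61, 3.48 and 5.94 CPM in KO libraries and 3.50, 3.56 and 4.60 CPM in WT libraries. The lowest of the 6 was KO library 2 and the highest KO library 3. The log2 fold change was 0.26 (95% interval -0.29 to 0.82, adjusted p = 0.493).

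The transmembrane chemokines showed no difference that could be told from 0. Cx3cl1 (fractalkine, ENSMUSG00000031778; chromosome 8, 95498637 to 95509055, plus strand) reached 124, 97.4 and 121 CPM in KO libraries and 112, 127 and 112 CPM in WT libraries. Its log2 fold change was -0.04, and the 95% interval of -0.30 to 0.23 bounds the change on both sides (edgeR quasi-likelihood adjusted p = 0.862). Cxcl16 (ENSMUSG00000018920; chromosome 11, 70344809 to 70350810, minus strand) had 10, 9 and 12 counts in KO libraries and 13, 9 and 8 in WT libraries. At this depth its log2 fold change of -0.12 has a 95% interval of -1.18 to 0.94, so changes of that size were not detectable. Zmynd15, on the opposite strand, overlaps it with 11 counts in KO and 16 in WT. Of the 18 genes of chemokine processing and shedding, 11 were tested, 1 rose, 2 fell and 8 did not pass (median log2 fold change 0.01). Over all tested genes 7.69% rose and 7.48% fell, with a median of -0.02. The sheddases Adam10 and Adam17, which release Cx3cl1 and Cxcl16 from the membrane, were at 178 ± 15.1 and 119 ± 11.1 CPM in KO and at 170 ± 15.5 and 119 ± 8.89 CPM in WT (SD, n = 3 each) and were not called. The metalloprotease gene Adam8 rose (log2 fold change 0.87, adjusted p = 0.00675) and the gelatinase Mmp9 fell (-0.77, 0.0195), a call lost without KO library 1 or 3 or WT library 2 (adjusted p of up to 0.0956). Mmp2, whose product trims several chemokines, had 0 counts in each KO library and 30, 36 and 61 in WT libraries, an at least 47.2-fold lower level against a floor of 3 counts over the KO group (adjusted p = 0.00271).

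Libraries moved the 10 genes in different ways. Against the WT mean of log2 CPM, the median of the 10 was 0.23, 0.01 and 0.34 in KO libraries 1 to 3 and -0.05, -0.03 and -0.05 in WT libraries, with 9, 5 and 8 of the 10 above the mean in KO libraries. KO library 2 was lower than the mean of the other KO libraries for Cxcl1, Cxcl2, Cxcl5, Cxcl16, Cx3cl1, Ccl2 and Ccl5, by log2 differences from -0.23 to -0.58. It was higher for Ccl7 (0.63), Ccl20 (0.38) and Cxcl10 (0.20), whereas the median difference of all tested genes was 0.00. Annotated transcripts of Ccl20, Ccl7 and Cxcl10, higher in KO library 2, have a GC content of 39.0%, 42.9% and 47.1%, against a median of 49.6% over all tested genes. Of those lower in it, Cxcl5 (41.3%), Ccl2 (44.3%), Cxcl1 (44.6%) and Cxcl2 (45.0%) also lie below that median. Cxcl16 (49.8%), Ccl5 (52.8%) and Cx3cl1 (57.1%) lie above it. With the per-library trend with GC content and length removed, Cxcl2 (log2 fold change 1.00, edgeR quasi-likelihood adjusted p = 0.0182) and Cxcl10 (0.77, 0.0214) kept their calls. They also kept them with KO library 2 and WT library 1 both left out, at log2 fold changes of 1.04 (adjusted p = 0.0011) and 0.55 (0.00214), but 7556 of 14825 tested genes were called in that setting.

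**Figure D3:**
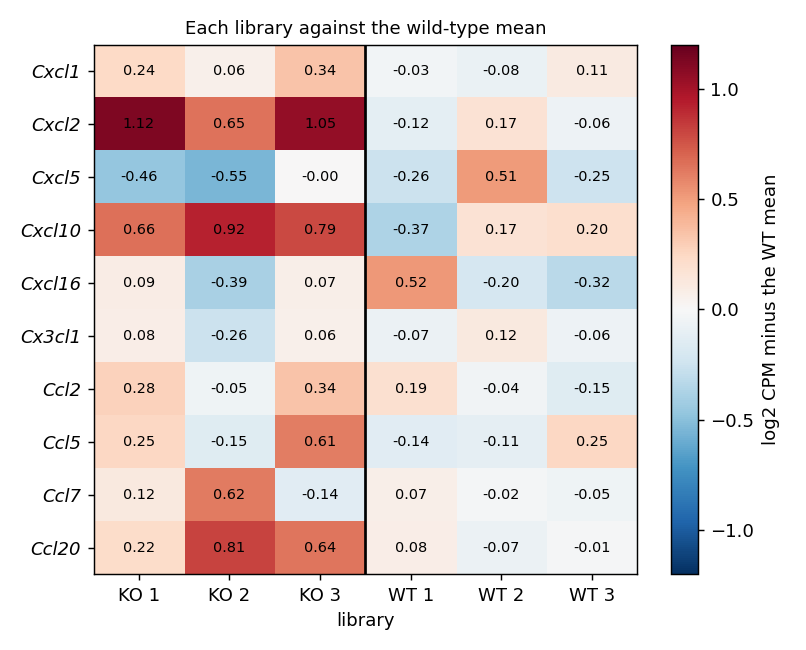
Log2 CPM of the 10 chemokine genes (rows) in each library (columns, KO left of the line, WT right) minus the mean of the 3 WT libraries; red is above and blue below that mean. Cxcl2 and Cxcl10 are above it in all 3 KO libraries, by 0.65 to 1.12 and 0.66 to 0.92, while Ccl7 is clearly above it only in KO library 2 (0.62).

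Most other chemokine genes were silent or nearly so. Of 29 further ligand genes 13 had no count in any library and 8 were tested, of which 1 rose, 2 fell and 5 did not pass (median log2 fold change 0.30). Over all tested genes 7.69% rose and 7.48% fell, with a median of -0.02. Ccl20 and Cxcl16 lie alone, and the other 8 of the 10 lie in chromosomal clusters with further ligand genes. Ccl2 and Ccl7 share a cluster on chromosome 11 with Ccl11 and Ccl12, at 0 counts, and with Ccl8 and Ccl1, at 18 and 1 counts in KO and 10 and 2 in WT. Ccl5 shares another with Ccl6, Ccl3 and Ccl4, all at 0, and with Ccl9, at 1 count in each group. Cx3cl1 lies between Ccl22 (0 counts in KO, 3 in WT) and Ccl17 (6 and 8 counts). On chromosome 5, Cxcl5, Ppbp, Pf4, Cxcl3, Cxcl15, Cxcl1 and Cxcl2 lie in this order over 147 kb, and calls among them went in both directions. Pf4, or platelet factor 4, fell, at 0.431, 0.160 and 0.457 CPM in KO libraries and 1.07, 1.42 and 1.60 CPM in WT libraries (log2 fold change -1.98, edgeR quasi-likelihood adjusted p = 0.0228). Ppbp, the gene of pro-platelet basic protein, also fell, at 0.517, 0.511 and 0.457 CPM in KO libraries and 1.26, 1.5 and 1.14 CPM in WT libraries (-1.39, 0.0255). Both calls were lost without KO library 1 or 3 or WT library 2 or 3, with adjusted p-values of up to 0.0969 for Pf4 and 0.133 for Ppbp, and that of Ppbp also by DESeq2 and with no filter on low counts. Ccl25 (log2 fold change -0.44) and Ccl27a (0.19), at 6.76 ± 0.413 and 3.81 ± 0.210 CPM in KO and 9.22 ± 4.07 and 3.37 ± 1.30 CPM in WT (SD, n = 3 each), did not pass. They overlap the more abundant Elavl1 and Il11ra1 (8910 and 1456 counts in KO, 9575 and 761 in WT) on the opposite strand, so their counts are uncertain if strand was not used.

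**Figure D4:**
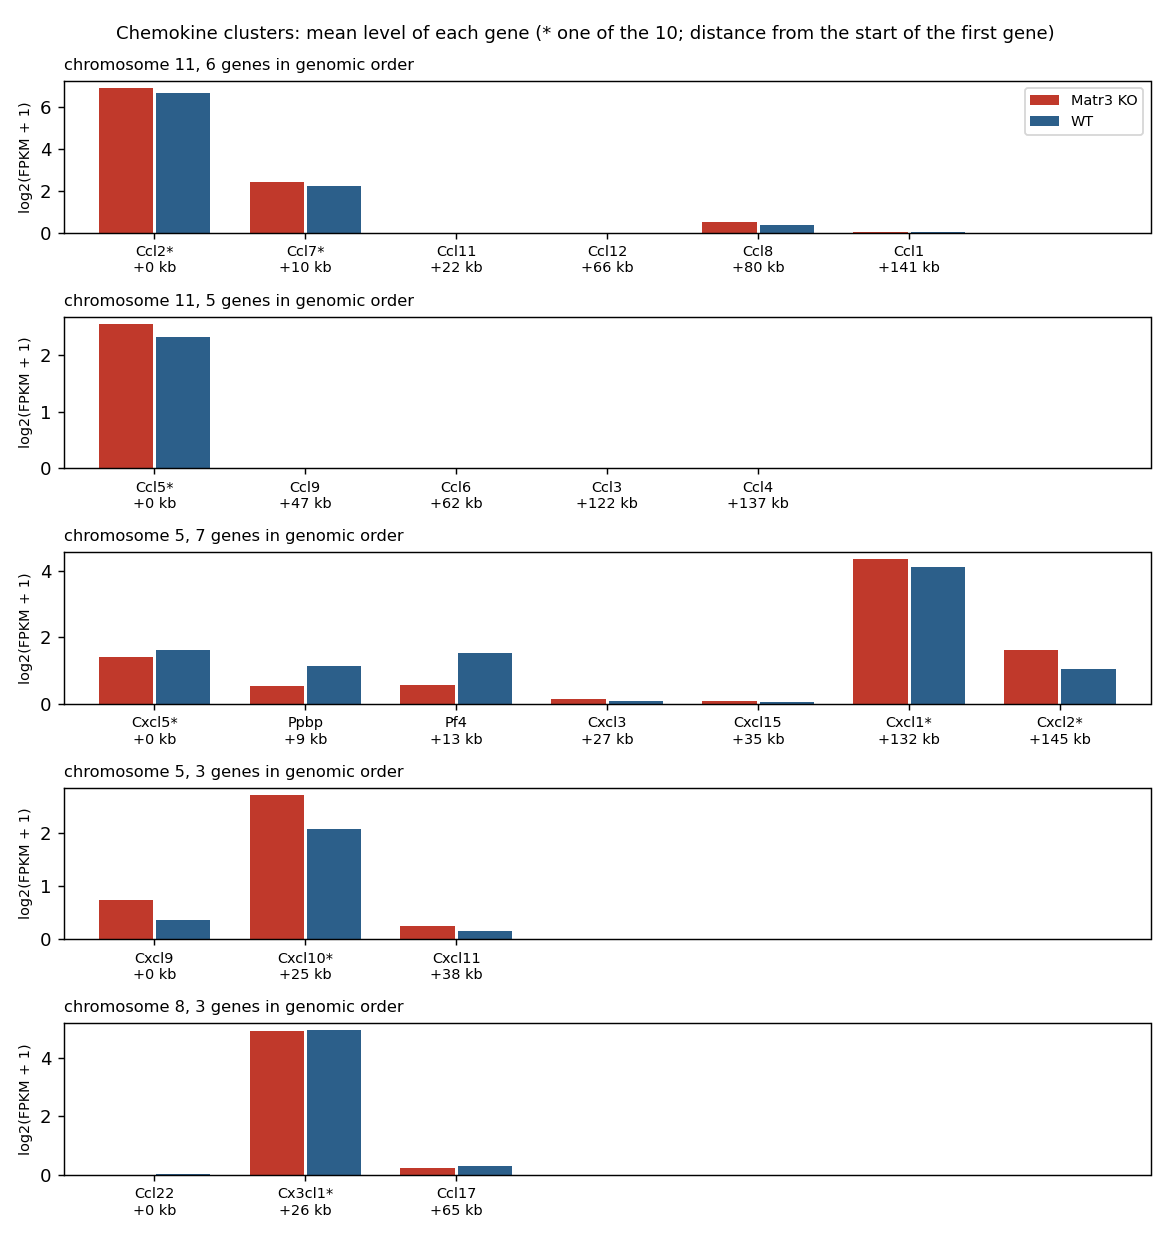
Mean level of each gene, as log2 of the mean FPKM + 1 (vertical axes), in the 5 chromosomal clusters that hold one or more of the 10 chemokines (starred), genes in genomic order with their distance from the start of the first; red bars are Matr3 KO and blue bars WT. Ccl2, Cxcl1, Cxcl10, Ccl5 and Cx3cl1 are the tallest bars of their clusters. Ccl5 and Cx3cl1 stand beside neighbours at or near 0, Ccl2 beside Ccl7 at 4.32 FPKM in KO and 3.63 in WT, and Pf4 and Ppbp are lower in KO in the cluster where Cxcl2 is higher.

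Receptors for these ligands were hardly detected. Of 22 chemokine receptor genes 8 had no count in any library and 4 were tested, of which 0 were called higher or lower by edgeR, DESeq2 or limma and 0 had an unadjusted edgeR p under 0.05. Ccr2 had 0 counts throughout, Cxcr2 had 2, 2 and 0 counts in KO libraries and 2, 4 and 3 in WT libraries, and Cx3cr1 had 1, 0 and 0 in KO and 2, 0 and 1 in WT. Cxcr3, the receptor of Cxcl10, had 21, 22 and 23 counts in KO libraries and 12, 14 and 23 in WT libraries. Its log2 fold change of 0.29 did not pass (edgeR quasi-likelihood adjusted p = 0.625). Ccr10, the only receptor with a mean of at least 1 CPM, was at 1.51 ± 0.449 CPM in KO and 1.56 ± 0.442 CPM in WT (SD, n = 3 each).

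Genes that act before the chemokines, and other secreted factors, were counted list by list. Over all tested genes 7.69% were called higher and 7.48% lower. Of 18 NF-kB subunits and inhibitors 17 were tested, and 2 rose, 0 fell and 15 did not pass (median log2 fold change 0.09). At an unadjusted edgeR p under 0.05, 4 were higher and 1 lower, where 2306 and 2301 of all 14842 tested genes were. By DESeq2 or limma 0 were called lower. The 2 that rose were Relb, the subunit of the noncanonical pathway (log2 fold change 0.68, edgeR quasi-likelihood adjusted p = 0.00862), and Cyld, a deubiquitinase that restrains the pathway (0.39, 0.0275). The call of Cyld was lost by limma on log2(FPKM + 1), kept without KO library 2 and lost without any other single library (adjusted p of up to 0.112). Of 24 receptors and adaptors that induce chemokines, 2 rose, 1 fell and 21 did not pass (median 0.16, against -0.02 over all tested genes). At an unadjusted p under 0.05, 9 of these 24 were higher and 1 lower, where 2306 and 2301 of all 14842 tested genes were. By library, 10 of the 24 lay wholly above WT and 1 wholly below, where 2710 and 2726 of all tested genes did. The adaptor Traf2 rose (0.64, adjusted p = 0.00501), as did the interleukin 17 receptor subunit Il17rc (0.55, 0.0404), and the thrombin receptor F2r fell (-0.53, 0.0177). The call of Il17rc was lost by limma voom and limma on log2(FPKM + 1) and without any 1 library but KO library 2 (adjusted p of up to 0.130), and that of F2r without KO library 1 or 3 or WT library 2 or 3 (up to 0.104). Tnfrsf1a, the main receptor for tumour necrosis factor, was at 147 ± 6.26 CPM in KO and 126 ± 7.10 CPM in WT without passing (0.22, adjusted p = 0.117). Of 20 other secreted inflammatory factors 13 were tested, and 0 rose, 3 fell and 10 did not pass (median -0.13). At an unadjusted edgeR p under 0.05, 1 was higher and 4 lower, and 0 were called higher by DESeq2 or limma. The 3 called lower were the interleukin 6 family cytokine Il11 (-1.67, adjusted p = 0.00886), osteopontin, Spp1 (-0.75, 0.00251), and the nuclear protein and alarmin Hmgb1 (-0.40, 0.0237). The Hmgb1 call was lost without KO library 1 or 3 or WT library 2 or 3 (up to 0.115) and after removal of the GC trend, while Il11 and Spp1 passed in each of the 6 fits without 1 library. Tnf had 5, 3 and 4 counts in KO libraries and 0, 1 and 6 in WT libraries, and Il1b had 2, 1 and 0 in KO and 0 in each WT library. Of 15 factors of chemokine mRNA stability 0 rose, 1 fell and 14 did not pass (median -0.11). At an unadjusted edgeR p under 0.05, 0 were higher and 4 lower. In 4 the KO libraries lay wholly below WT, where 18.4% of all tested genes did. By DESeq2 or limma 0 were called higher, and limma voom called 2 lower. The 1 called by edgeR was Rc3h1, or roquin 1 (-0.35, adjusted p = 0.0476). Its call did not hold by limma on log2(FPKM + 1) or with RLE size factors, nor when any 1 library other than KO library 2 was left out (adjusted p of up to 0.240). The decay factor gene Zfp36, which encodes tristetraprolin, was at 19.1 ± 4.99 CPM in KO and 18.7 ± 2.75 CPM in WT (SD, n = 3 each).

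The genes with the profile most like that of each called chemokine were found as the smallest root mean square difference between centred log2 CPM values over the 6 libraries, among 9914 protein-coding genes at a mean of at least 5 CPM. For Cxcl2 these were Dapk3, at a difference of 0.0573, and Tapbp, at 0.0690. For Cxcl10, among 9913 genes, they were Nqo1, at 0.0673, and Blnk, at 0.0707. With 6 libraries and so many candidates, such close profiles are a description of these libraries only.

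**Figure D5:**
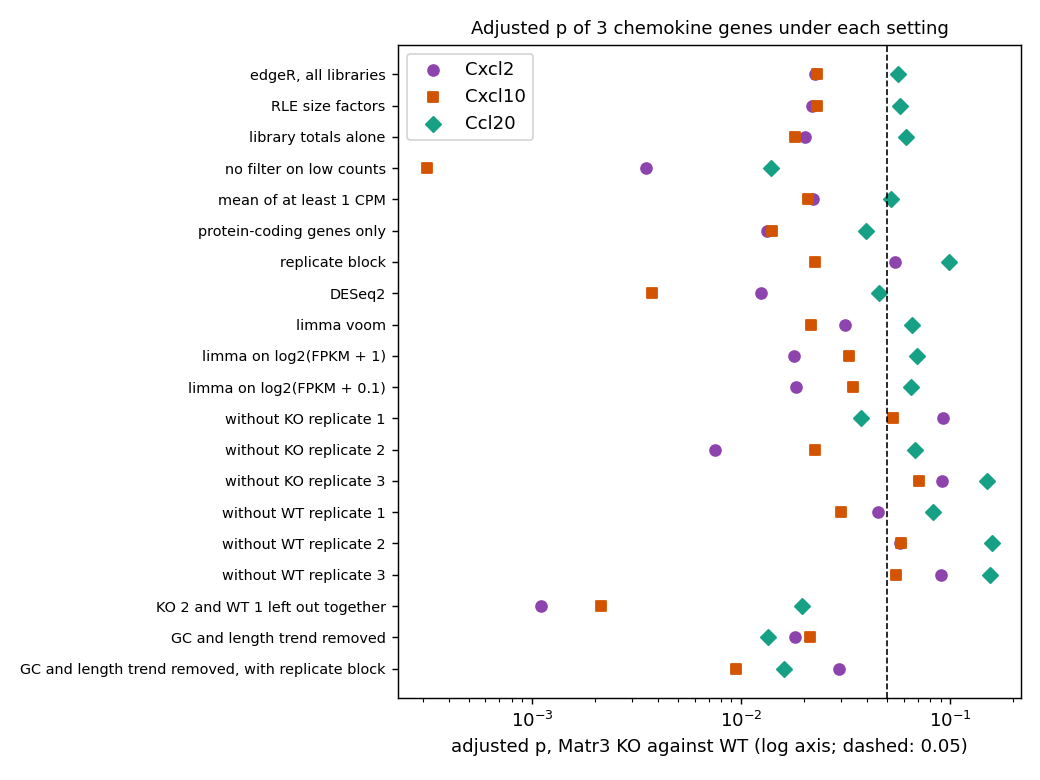
Adjusted p (horizontal log axis, dashed line at 0.05) of Cxcl2, Cxcl10 and Ccl20 for Matr3 KO against WT under each setting (vertical axis). With all libraries, Cxcl2 and Cxcl10 lie left of the line in the settings shown except for Cxcl2 with the replicate block, and both lie right of it when KO library 1 or 3 or WT library 2 or 3 is left out, and Ccl20 lies on both sides.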

How the data were processed

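Total RNA was extracted and built into mRNA-seq libraries, per the labels' protocols. Strandedness, aligner and counter: not given in the sources used here. GRCm38 and mm10 stand in the submitters' processing notes, but of 52133 gene identifiers shared with GENCODE M21 on GRCm38 only 1546, and 0 of the 10 chemokines, have the same coordinates there, so coordinates are printed as deposited and their build is unsettled. The deposited counts are whole numbers per gene. The deposited FPKM values are counts scaled by gene length and depth, as the authors made them. The authors' deposited table also holds a signal (1 mean of scaled counts per group), log2 fold changes and p-values, from a tool not named. The 159 features without an Ensembl identifier (0.242% of counts) stayed in.

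The test was run in edgeR 4.0.16 under R 4.3.3 (filterByExpr, TMM, quasi-likelihood F test, no covariate) over 14842 genes, adjusted by the Benjamini-Hochberg method. Fold changes are knockout over wild type, CPM uses TMM-adjusted library sizes, and intervals follow from the F statistic and its degrees of freedom. The fit was tested on simulated counts. Alternatives used DESeq2 1.42.0 and limma 3.58.1, and other filters, scalings and subsets of libraries. GC content came from GENCODE M21 for 98.8% of tested genes. Intervals on counts cover counting error only, since PCR copies of a molecule cannot be told from new ones.

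The 10 chemokines and all other lists were chosen with earlier results of these data known. Named were all 10, up to 4 called genes of each list, ligands and receptors at a mean of at least 1 CPM, and the 2 genes most like each called chemokine. Other genes were named after their values were seen.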

Additional observations from a re-analysis of the deposited data

How the results depend on the processing

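No chemokine changed direction with a call under any setting. The calls of Cxcl2 and Cxcl10 were kept with RLE size factors, library totals, both filters, protein-coding genes, DESeq2, limma voom, limma on both FPKM scales, and after removal of the GC and length trend. At an adjusted p of 0.01 the log2 fold changes 0.97 (Cxcl2) and 0.78 (Cxcl10) no longer passed, 0 chemokines were called, and the table had 721 calls, 347 higher and 374 lower. Samples with the same replicate number did not deviate together (correlations 0.17, -0.03 and -0.20). With 3 libraries a group, each centred on its group mean, these values cannot tell whether the numbers pair samples. The labels do not say. With the replicate block, 1 chemokine was called, since Cxcl2 (0.96, edgeR adjusted p = 0.0544) missed the threshold, and 1599 genes in all against 2252. The block also ended the calls of Cxcl9 (adjusted p = 0.0628), Ppbp (0.0638), Cyld (0.0520), Il17rc (0.0560), Rc3h1 (0.0784), Hmgb1 and Krt18. With the block and the GC and length trend removed together, 3 were called, and Ppbp (0.0576) was not. Ccl20 passed with no filter (0.63), protein-coding genes only (0.60), DESeq2 (0.60), the GC and length trend removed (0.71) and that with the replicate block (0.70). It missed with RLE, library totals, the 1 CPM filter, limma voom, both FPKM fits and the replicate block (adjusted p of 0.0523 to 0.0988). With KO library 2 and WT library 1 both left out, 5 chemokines were called, with Cxcl1 (0.27), Ccl2 (0.41) and Ccl20 (0.50) added, of 7556 genes called, 3750 higher and 3806 lower. Leaving out 1 library at a time gave 807 to 4295 calls (393 to 2286 higher, 377 to 2009 lower) and 0 to 3 chemokines called higher. The log2 fold changes ran from 0.91 to 1.11 for Cxcl2, 0.63 to 0.87 for Cxcl10, 0.46 to 0.76 for Ccl20 and 0.18 to 0.29 for Cxcl1. These fits also have fewer samples, and the causes of the loss of calls in some and of the gain without KO library 2 were not tested. On the plus strand alone, 33.6% of promoter windows held the loose NF-kB letters, 0.170% the narrower form and 1.53% the response element core. Depth limits Cxcl16 most, at 8 to 13 counts a library.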
